A study of Homo sapiens with 6 samples.

Results

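The genes described here encode the nuclear part of respiratory complex I, the NADH dehydrogenase of the mitochondrial inner membrane. They were chosen by name, from a list of 36 structural subunits and 7 assembly factors of the NDUFAF series, and all 43 were found among the 60624 gene rows of the expression table. RNA was sequenced from A549, an established human lung adenocarcinoma line, in 3 siCEP20 libraries, from cells given a small interfering RNA (siRNA) against CEP20, the gene of a microtubule-binding protein, and in 3 siCTR libraries, from cells given a control siRNA. In both groups the labels give 3 days of transfection. They do not say which of the CEP20 siRNAs of the study's methods was used or whether the 3 libraries of a group came from separate cultures, so the p-values below measure only the spread between these libraries, which may be technical. The labels and the study's methods also differ on the medium (F-12K or DMEM) and on the RNA extraction (a column kit or TRIzol), and a treatment field common to all 6 samples names a plasmid. Levels are given as TPM, a transcript abundance scaled for the length of the transcript and to the same total in each library. Read depth is therefore unknown.

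Complex I takes electrons from NADH, passes them along iron-sulfur clusters to ubiquinone and pumps protons across the inner membrane. Its L-shaped structure has a matrix arm, built from the NADH-oxidizing N module and the ubiquinone-reducing Q module, and a membrane arm, built from modules named after the mitochondrially encoded subunits ND1, ND2, ND4 and ND5 of its proton-pumping part. The core subunits carry out catalysis and the supernumerary subunits surround them, while assembly factors help to join the modules and are not part of the finished enzyme.

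Promoter sequences from RefSeq (GRCh38.p14, from 250 bases before to 50 bases after a start annotated in that source) were matched to 38 members by symbol. These starts can differ from the gene coordinates given below, which come from another annotation. The NDUFS7, NDUFA10 and NDUFV3 windows lie wholly inside those coordinates, that of NDUFV3 farthest from the gene start. The members without an entry were NDUFB5, NDUFB9, NDUFC2, NDUFS5 and NDUFAF6. The 5 printed here belong to the lowest member with no overlap on its own strand in each of the ND1 and N modules (NDUFA1 and NDUFA2), to the lowest core subunit (NDUFS7) and to the members that rose (NDUFA10 and NDUFV3). Each is written 5′ to 3′ on the gene's strand, and capitals mark a match, on either strand, to an ETS-type (CCGGAAG), NRF1-type (GCGCATGC), YY1-type (AAGATGGC) or SP1-type (GGGCGG) motif.
NDUFA1 promoter (chrX:119871582-119871881, plus strand): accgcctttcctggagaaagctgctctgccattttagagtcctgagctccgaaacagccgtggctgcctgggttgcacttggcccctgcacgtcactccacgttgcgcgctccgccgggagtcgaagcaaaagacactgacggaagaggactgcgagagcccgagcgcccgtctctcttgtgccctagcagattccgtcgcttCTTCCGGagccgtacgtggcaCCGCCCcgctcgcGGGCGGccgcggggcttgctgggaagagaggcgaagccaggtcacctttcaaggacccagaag
NDUFA2 promoter (chr5:140647581-140647880, minus strand): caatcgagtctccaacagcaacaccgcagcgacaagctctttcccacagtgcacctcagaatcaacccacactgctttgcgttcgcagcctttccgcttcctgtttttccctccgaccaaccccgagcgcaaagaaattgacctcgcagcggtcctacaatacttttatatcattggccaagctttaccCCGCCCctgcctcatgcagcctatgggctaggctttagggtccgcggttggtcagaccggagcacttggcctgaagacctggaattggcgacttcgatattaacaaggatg
NDUFS7 promoter (chr19:1383657-1383956, plus strand): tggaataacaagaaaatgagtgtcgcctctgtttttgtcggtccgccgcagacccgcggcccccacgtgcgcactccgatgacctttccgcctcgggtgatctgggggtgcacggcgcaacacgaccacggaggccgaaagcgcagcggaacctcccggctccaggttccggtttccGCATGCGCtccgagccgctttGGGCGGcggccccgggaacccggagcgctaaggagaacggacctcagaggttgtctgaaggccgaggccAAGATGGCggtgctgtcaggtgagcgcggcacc
NDUFA10 promoter (chr2:240025293-240025592, minus strand): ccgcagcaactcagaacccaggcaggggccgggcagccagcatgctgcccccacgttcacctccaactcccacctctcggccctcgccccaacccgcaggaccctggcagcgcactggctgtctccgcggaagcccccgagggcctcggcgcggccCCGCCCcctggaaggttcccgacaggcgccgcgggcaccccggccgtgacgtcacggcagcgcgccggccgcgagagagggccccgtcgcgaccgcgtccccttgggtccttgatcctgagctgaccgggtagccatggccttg
NDUFV3 promoter (chr21:42893059-42893358, plus strand): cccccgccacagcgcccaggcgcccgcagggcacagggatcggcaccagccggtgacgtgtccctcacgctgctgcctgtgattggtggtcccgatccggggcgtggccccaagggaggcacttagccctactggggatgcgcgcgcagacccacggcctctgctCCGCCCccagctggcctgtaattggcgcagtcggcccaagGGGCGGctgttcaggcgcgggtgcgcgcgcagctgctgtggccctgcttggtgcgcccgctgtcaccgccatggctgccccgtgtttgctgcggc

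The NDUFA1 window holds an ETS-type and 2 SP1-type matches, and the NDUFS7 window holds an NRF1-type, a YY1-type and an SP1-type match. The NDUFA2, NDUFA10 and NDUFV3 windows hold SP1-type matches and none of the other 3 motifs. Among the 38 members with a window, 8 (21.1%) held the NRF1-type motif, against 3.68% of all 27305 genes with a window and 6.59% of the tested genes with one. The YY1-type motif stood in 7 members (18.4%, against 3.52% of all and 6.53% of tested genes). The ETS-type motif stood in 6 members (15.8%, against 12.2% of all and 22.5% of tested genes), and the SP1-type motif in 24 (63.2%, against 48.3% and 77.4%). Of the 19 members with a window that were lower in the siCEP20 libraries, 3 held the NRF1-type and 2 the YY1-type motif, against 5 and 5 of the other 19. The ETS-type and SP1-type motifs went the other way, in 4 and 13 of the lower members against 2 and 11 of the others. The motif matches are a description of these windows and do not mark sites in use.

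CEP20 itself was checked first. It stood at 29.2, 30.5 and 35.1 TPM with siCTR and at 16.2, 15.3 and 17.3 TPM with siCEP20, without overlap of the groups and with a log2 fold change of -0.92 (standard error 0.0915, limma with Benjamini-Hochberg adjusted p = 0.000205). The exact two-sided permutation test over the 6 libraries gave p = 0.1, the smallest value that 3 against 3 allow. Fold changes here and below are differences of log2(TPM + 1), which understate changes of genes with low TPM, and they were tested over 14778 genes, those whose mean reached 1 TPM. The median of all tested genes was 0.13 on this scale (-0.0052 after median-of-ratios scaling), and list medians are also given relative to it. Of 6 epithelial and A549 markers, 4 were higher and 2 lower (3 and 2 after median-of-ratios scaling), with summed levels of 4377 to 4513 TPM in siCTR and 5178 to 5383 TPM in siCEP20 libraries. KRT8 and KRT18 made up most of this sum, and EPCAM was at 1.04 TPM in siCTR and 3.38 TPM in siCEP20 libraries. Summed levels of the 5 fibroblast and the 5 endothelial markers stayed at or below 0.595 TPM. Of the immune markers, CD68 was at 15.04, 22.98 and 18.7 TPM (siCTR) and 27.00, 29.1 and 45.3 TPM (siCEP20) and was higher, with a log2 fold change of 0.79 (adjusted p = 0.0161) by limma with Benjamini-Hochberg adjustment. CD3E was listed at 0 in all 6 libraries, and PTPRC and LYZ did not reach the mean of 1 TPM needed for a test. The part of these differences in the results was not tested.

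Subunit genes of complex I were lower in siCEP20 libraries across most of the complex, with the lowest medians in modules of the membrane arm. All 43 members passed the filter on low values. At an adjusted p under 0.05 (limma with Benjamini-Hochberg adjustment), 23 members were lower (53.5%, against 13.2% of all genes tested) and 2 were higher (4.65%, against 30.2%), while 18 did not pass. With a fold change under 0.67 or over 1.5 required as well, 10 members were lower, where 4.61% of all genes were, and 0 were higher, where 11.2% of all genes were (0 also at an unadjusted limma p). The 3 siCEP20 values lay below all 3 siCTR values in 24 members (55.8%, against 17.0% of all genes) and above them in 2 (against 38.4%). The median log2 fold change of the members was -0.33, or -0.46 relative to all genes. In bulk RNA, fewer cells of a type and less RNA per cell cannot be told apart.

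Because more genes were called higher than lower, the counts were also taken after rescaling. With median-of-ratios scaling, 31 members were lower (72.1%, against 21.8% of all genes) and 1, NDUFA10, was higher (against 19.7%), while the share of higher genes among all calls went from 69.6% to 47.4%. With length and GC content corrected for, 25 members were lower (58.1%, against 21.6% of all genes) and 1, again NDUFA10, was higher (against 19.9%).

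**Figure D1:**
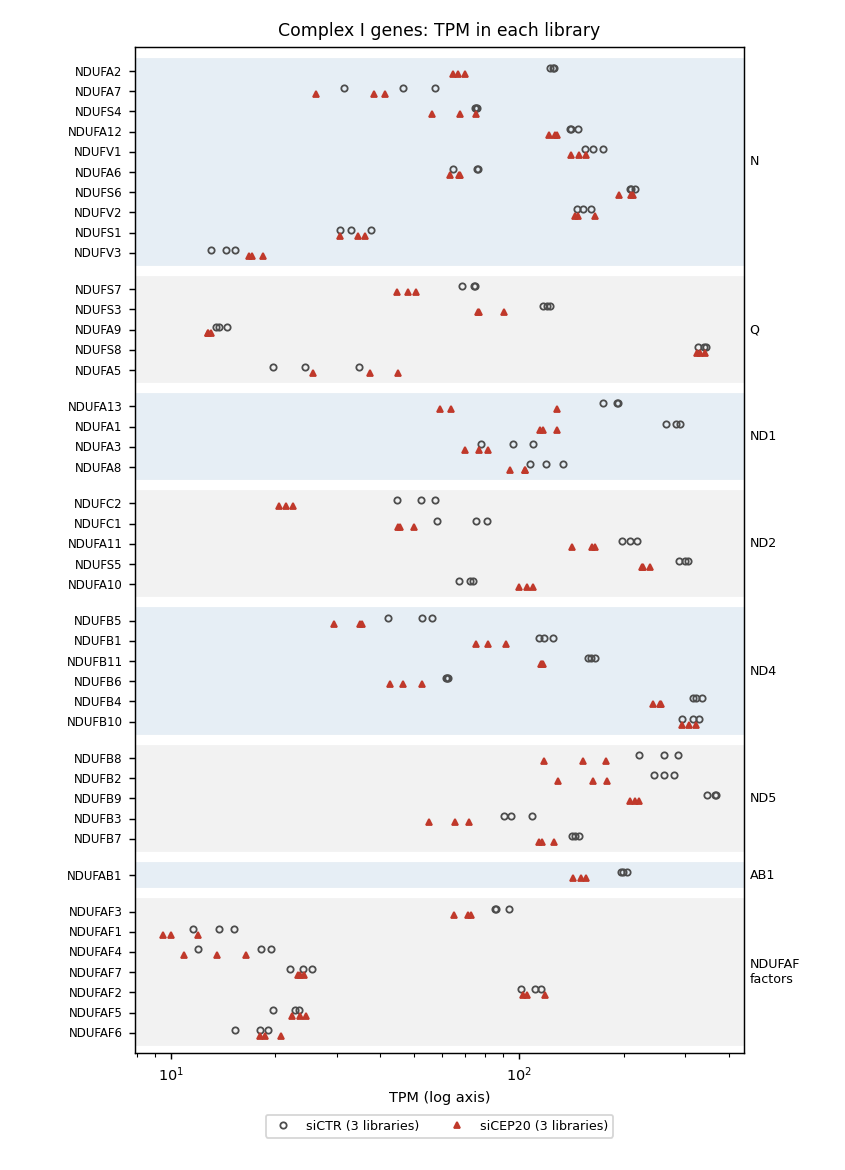
TPM (log axis) of the 43 complex I genes in each of the 3 siCTR (open circles) and 3 siCEP20 (triangles) libraries, grouped by module. The triangles lie left of all circles in 24 genes and right of all circles in NDUFA10 and NDUFV3.

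The ND1 module, at the joint of the arms, held 4 members, of which 3 were lower. The module's median log2 fold change was -0.75. NDUFA1 (ENSG00000125356; chrX:119871832-119876662, plus strand), a small single-span membrane subunit, was at 291, 281 and 264 TPM with siCTR and 115, 129 and 117 TPM with siCEP20. The groups lay far apart, with less spread inside each than between them, and the level went from 279 ± 13.5 to 120.3 ± 7.43 TPM (SD, n = 3). The log2 fold change was -1.21 (standard error 0.0645, limma with Benjamini-Hochberg adjusted p = 2.76e-05), and 43.1% of the control level was left. NDUFA13 (ENSG00000186010; chr19:19515736-19529054, plus strand), a subunit also known as GRIM-19, was at 192, 174 and 192 TPM with siCTR and 59.2, 63.6 and 129 TPM with siCEP20. The groups did not overlap, but the siCEP20 replicate 3 library stood well above the other two. The log2 fold change was -1.23 (standard error 0.254, limma with Benjamini-Hochberg adjusted p = 0.0056), and it lay between -1.58 and -1.03 with each library left out in turn. NDUFA8, a cysteine-rich subunit of the intermembrane face, fell by less, with 134, 108 and 119.7 TPM (siCTR) and 104, 104 and 94.4 TPM (siCEP20) and a log2 fold change of -0.25 (standard error 0.0856, limma with Benjamini-Hochberg adjusted p = 0.0438). NDUFA8 kept its call without siCTR replicate 2 and lost it without any other single library (adjusted p up to 0.127) and after the length and GC correction (0.129). NDUFA3, a small membrane subunit, did not pass, at -0.30 (adjusted p = 0.0747), but did so without siCTR replicate 1 (adjusted p = 0.0110), under median-of-ratios scaling (0.00682) and under quantile normalization (0.0198).

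In the ND5 module, the far end of the membrane arm, all 5 members fell. They had a median log2 fold change of -0.74. NDUFB9 (ENSG00000147684; chr8:124539101-124580648, plus strand), a member of the LYR protein family, was at 346, 368 and 365 TPM with siCTR and 221, 208 and 216 TPM with siCEP20. It was the most abundant ND5-module gene in the siCTR libraries, its groups did not overlap, and its log2 fold change was -0.74 (standard error 0.0512, limma with Benjamini-Hochberg adjusted p = 5.22e-05). NDUFB2 (ENSG00000090266; chr7:140690777-140722790, plus strand), a small membrane subunit, was at 260.2, 244 and 279 TPM with siCTR and 163, 179 and 129 TPM with siCEP20. The siCEP20 libraries were all lower, with a wider spread than the controls, and the log2 fold change was -0.74 (standard error 0.113, limma with Benjamini-Hochberg adjusted p = 0.00135). NDUFB8 (ENSG00000166136; chr10:100523740-100530000, minus strand), whose protein is often used as a blotting marker of complex I, was at 287, 261 and 222 TPM with siCTR and 118, 178 and 153 TPM with siCEP20. Both groups were spread out and still did not overlap, with a log2 fold change of -0.79 (standard error 0.149, limma with Benjamini-Hochberg adjusted p = 0.00373). NDUFB3 (ENSG00000119013; chr2:201071433-201085750, plus strand), another small membrane subunit, was at 109, 94.6 and 90.6 TPM with siCTR and 55.2, 71.9 and 65.3 TPM with siCEP20. All of its siCEP20 values were below the lowest control, and the log2 fold change was -0.61 (standard error 0.108, limma with Benjamini-Hochberg adjusted p = 0.00279). NDUFB7, which is anchored on the intermembrane side, showed the smallest change of the module, at -0.29 (adjusted p = 0.00508) by limma with Benjamini-Hochberg adjustment.

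In the ND2 module, 4 of 5 members fell and 1 rose. NDUFC2 (ENSG00000151366; chr11:78068297-78079862, minus strand) was at 44.7, 52.3 and 57.4 TPM with siCTR and 21.5, 22.5 and 20.4 TPM with siCEP20. The siCEP20 values were all below the lowest control, and the log2 fold change of the gene's own row was -1.22 (standard error 0.0978, limma with Benjamini-Hochberg adjusted p = 8.33e-05). A readthrough gene joined to the neighbouring KCTD14, which overlaps the whole gene on the same strand, took up more TPM than NDUFC2 itself, and the call did not hold for their sum, as described below. NDUFC1 (ENSG00000109390; chr4:139266880-139302551, minus strand), its small partner subunit, was at 75.1, 58.1 and 80.8 TPM with siCTR and 45.7, 50.01 and 44.9 TPM with siCEP20. The controls were more spread than the siCEP20 libraries but did not overlap with them, and the log2 fold change was -0.58 (standard error 0.118, limma with Benjamini-Hochberg adjusted p = 0.0051). NDUFA11, a membrane subunit, and NDUFS5, a cysteine-rich subunit of the intermembrane face, fell by 0.41 and 0.37 on the log2 scale (limma, Benjamini-Hochberg adjusted p = 0.00277 and 0.000864).

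The member that rose in the ND2 module was NDUFA10 (ENSG00000130414; chr2:239892450-240025743, minus strand), a matrix-facing subunit with a fold like that of nucleoside kinases. It was at 67.5, 73.6 and 72.5 TPM with siCTR and 100.3, 109.9 and 106 TPM with siCEP20. The lowest siCEP20 library was above the highest control, and the log2 fold change was 0.56 (standard error 0.0634, limma with Benjamini-Hochberg adjusted p = 0.000365), the highest of all members. NDUFA10 remained higher after median-of-ratios scaling (0.40) and after the length and GC correction (0.34).

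In the ND4 module, 5 of 6 members fell, with a median log2 fold change of -0.43, and none passed the fold threshold. NDUFB5 came closest, with 41.9, 52.7 and 56.3 TPM (siCTR) and 29.5, 34.9 and 35.4 TPM (siCEP20) and a log2 fold change of -0.58 (standard error 0.12, limma with Benjamini-Hochberg adjusted p = 0.00584). Its mean TPM was 66.2% of the control level. With 0.1 in place of 1 added to TPM, NDUFB5 was at -0.588 (limma with Benjamini-Hochberg adjusted p = 0.00611). It then passed the fold threshold, and 11 members in all were past both thresholds. NDUFB1, which has the shortest transcript of all members, fell by 0.52 on the log2 scale, NDUFB11 by 0.46, NDUFB6 by 0.39 and NDUFB4 by 0.37 (limma, Benjamini-Hochberg adjusted p from 0.000273 to 0.00591). NDUFB11 had the least spread of these in the siCEP20 libraries, at 165, 158 and 161 TPM (siCTR) and 116, 117 and 118 TPM (siCEP20). NDUFB10, an intermembrane-side subunit, did not pass and its groups overlapped, at 317, 294 and 329 TPM (siCTR) and 295, 307 and 323 TPM (siCEP20). Its log2 fold change of -0.024 had a 95% interval from -0.16 to 0.12 and turned positive after the length and GC correction. NDUFAB1, the mitochondrial acyl carrier protein, which is bound in the complex and also serves fatty acid and iron-sulfur cluster synthesis, fell by 0.41 on the log2 scale (limma, Benjamini-Hochberg adjusted p = 0.000624).

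In the N module, which binds NADH, 2 of 10 members were lower and 1 was higher, against 6 and 0 under median-of-ratios scaling. NDUFA2 (ENSG00000131495; chr5:140638740-140647771, minus strand), a subunit with a thioredoxin-like fold, was at 126, 123 and 125 TPM with siCTR and 70.2, 64.5 and 67.01 TPM with siCEP20. The controls were within a few TPM of each other and far above all siCEP20 libraries, with a log2 fold change of -0.88 (standard error 0.0566, limma with Benjamini-Hochberg adjusted p = 4.50e-05). NDUFA12 fell by 0.19 on the log2 scale, with 142, 148 and 140.4 TPM (siCTR) and 126, 128 and 122 TPM (siCEP20) (limma, Benjamini-Hochberg adjusted p = 0.021), and lost its call after the length and GC correction (adjusted p = 0.0824), without siCTR replicate 2 (0.0777) and without siCEP20 replicate 3 (0.0700). NDUFV3 (ENSG00000160194; chr21:42879644-42913304, plus strand), a supernumerary subunit, rose from low levels, with 13.04, 14.4 and 15.3 TPM (siCTR) and 16.8, 18.4 and 17.1 TPM (siCEP20). Its groups did not overlap, but the log2 fold change of 0.28 (standard error 0.087, limma with Benjamini-Hochberg adjusted p = 0.0325) lost its call after median-of-ratios scaling (adjusted p = 0.149) and without any single library other than siCTR replicate 3 (adjusted p up to 0.106).

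The N module's catalytic genes did not pass the test. NDUFV1, which holds the flavin and the NADH site, was at 163, 154 and 174 TPM (siCTR) and 141, 148 and 156 TPM (siCEP20). NDUFV2, an iron-sulfur subunit, was at 153, 146 and 161 TPM (siCTR) and 145, 165 and 147 TPM (siCEP20). NDUFS1, the iron-sulfur subunit that is the largest of the complex, was at 30.7, 32.9 and 37.7 TPM (siCTR) and 34.4, 36.1 and 30.5 TPM (siCEP20). The groups overlapped in all 3 genes, and the log2 fold changes were -0.14, -0.01 and -0.0018, with 95% intervals from -0.29 to 0.0091, from -0.17 to 0.15 and from -0.23 to 0.22. NDUFV1 was lower after median-of-ratios scaling (adjusted p = 0.00715), quantile normalization (0.0221) and the length and GC correction (0.0333). NDUFS1 was lower after the length and GC correction (-0.30, adjusted p = 0.00855), all by limma with Benjamini-Hochberg adjustment. The other N-module members that did not pass, NDUFA6, NDUFA7, NDUFS4 and NDUFS6, ranged from -0.33 to -0.043 on the log2 scale. Under median-of-ratios scaling, NDUFS4, NDUFA6 and NDUFS6 were lower (adjusted p = 0.0174, 0.0307 and 0.0398). NDUFS4 also passed under quantile normalization (0.0444) and when siCEP20 replicate 2 was left out (0.0480).

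In the Q module, 2 of 5 members were lower, both of them core subunits. NDUFS7 (ENSG00000115286; chr19:1383527-1395589, plus strand), which carries the last iron-sulfur cluster before ubiquinone, was at 68.8, 74.2 and 74.97 TPM with siCTR and 50.7, 48.1 and 44.7 TPM with siCEP20. The groups did not overlap, and the log2 fold change was -0.59 (standard error 0.0706, limma with Benjamini-Hochberg adjusted p = 0.000451). NDUFS3, a core subunit of the ubiquinone-binding region, was at 123, 121 and 117 TPM with siCTR and 76.3, 90.7 and 76.8 TPM with siCEP20, also without overlap, with a log2 fold change of -0.56 (standard error 0.0767, limma with Benjamini-Hochberg adjusted p = 0.000834). NDUFS8, a core subunit with iron-sulfur clusters, was among the most abundant members and its groups overlapped, at 326, 339 and 344 TPM (siCTR) and 325, 330.1 and 342 TPM (siCEP20). Its log2 fold change was -0.017, with a 95% interval from -0.13 to 0.094. It was called lower under median-of-ratios scaling (-0.17, limma with Benjamini-Hochberg adjusted p = 0.0171) and turned positive after the length and GC correction. NDUFA5, a small peripheral subunit, had widely spread and overlapping values of 19.6, 34.8 and 24.3 TPM (siCTR) and 25.6, 44.97 and 37.4 TPM (siCEP20) and did not pass (0.44, limma with Benjamini-Hochberg adjusted p = 0.166), though it did without siCTR replicate 2 (adjusted p = 0.0481). NDUFA9, a subunit with a dehydrogenase-like fold, had groups that did not overlap, at 13.5, 13.7 and 14.5 TPM (siCTR) and 13.02, 12.8 and 12.8 TPM (siCEP20), but did not pass either (-0.10, adjusted p = 0.304). NDUFA9 was lower under median-of-ratios scaling (-0.25, adjusted p = 0.0205), quantile normalization (-0.26, 0.0172) and the length and GC correction (-0.38, 0.00435). With median-of-ratios scaling, 4 of the 5 Q-module genes were lower.

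**Figure D2:**
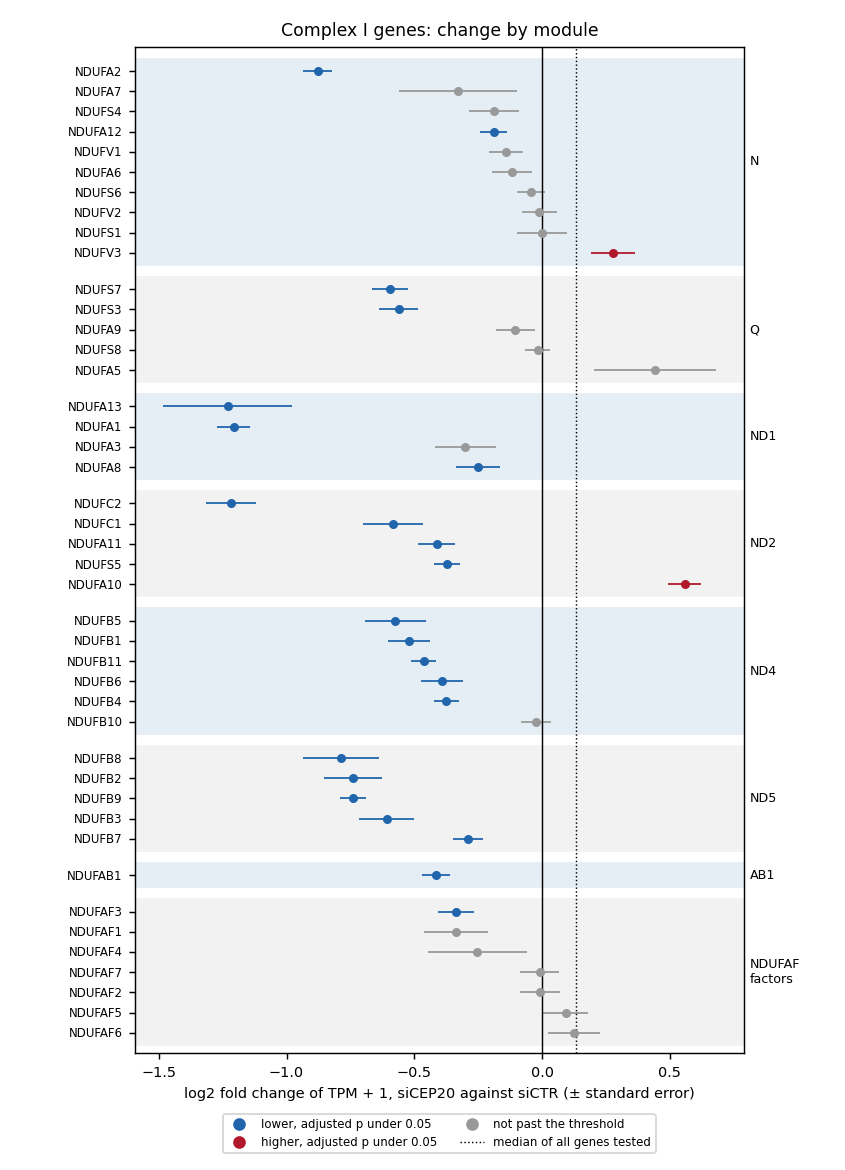
Log2 fold change of TPM + 1 (siCEP20 against siCTR) with its standard error for the 43 genes by module; blue is lower and red higher at an adjusted p under 0.05, and the dotted line marks the median of all genes tested, 0.13. In the membrane-arm modules 17 of 20 genes are blue, against 4 of 15 in the N and Q modules (18 and 10 under median-of-ratios scaling, not drawn).

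Counted by arm, 17 of 20 membrane-arm genes were lower and 1 was higher, and 4 of 15 matrix-arm genes were lower and 1 was higher. Under median-of-ratios scaling the counts were 18 lower and 1 higher in the membrane arm and 10 lower and 0 higher in the matrix arm, and after the length and GC correction they were 16 and 1, and 6 and 0, so the matrix-arm count depended on the scaling. The median log2 fold change was -0.49 in the membrane arm (-0.62 relative to all genes) and -0.12 in the matrix arm (-0.25 relative). The summed membrane-arm genes were at 3577, 3465 and 3551 TPM with siCTR and 2388, 2570.2 and 2492 TPM with siCEP20. They went from 3531 ± 58.4 to 2483 ± 91.2 TPM (SD, n = 3), 70.3% of the control level. The summed matrix-arm genes were at 1594, 1587 and 1635 TPM with siCTR and 1395, 1449.8 and 1439 TPM with siCEP20, which was 88.9% of the control level. Neither sum overlapped between the groups. The mean log2 level of the matrix-arm genes minus that of the membrane-arm genes was -0.98, -0.95 and -0.95 with siCTR and -0.56, -0.62 and -0.61 with siCEP20, so the arms stood closer to each other in each knockdown library. The medians were -0.65 in the membrane arm and -0.27 in the matrix arm under median-of-ratios scaling, and -0.42 and -0.14 after the length and GC correction. After that correction the module medians were -0.69 in ND1, -0.63 in ND5, -0.40 in ND4 and -0.32 in ND2. The Q module was at -0.38, below ND2, and the N module at -0.13, so the modules did not split wholly by arm. By module, the summed level left was 56.02% in ND1, 62.8% in ND5, 80.02% in ND2, 81.3% in ND4, 88.5% in N and 89.6% in Q. These sums leave out the readthrough rows described below. The ND2 sum counts NDUFC2 by its own row only (51.5 TPM with siCTR, 21.5 TPM with siCEP20). The NDUFC2 readthrough row was at 100.1 and 117 TPM, so the ND2 share depends on how reads were divided between these rows.

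**Figure D3:**
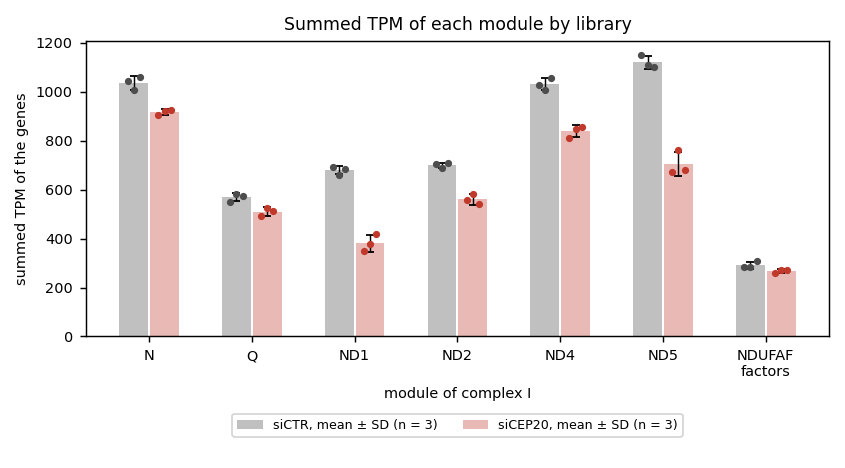
Summed TPM of the genes of each module and of the 7 NDUFAF assembly factors; bars are the mean of 3 libraries, error bars the SD and points the single libraries, grey for siCTR and red for siCEP20. The ND1 sum went to 56.02% and the ND5 sum to 62.8% of the control level, the assembly factor sum to 92.4%.

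Among the members, 2 of 6 core subunits were lower (median log2 fold change -0.08), as were 20 of 30 supernumerary subunits (median -0.38), which also held both members that rose. The core count was 4 of 6 under median-of-ratios scaling and after the length and GC correction, each with a median of -0.24, beside 25 and 19 of the 30 supernumerary subunits. All 20 membrane-arm members are supernumerary, since the core of that arm is encoded in mitochondrial DNA. The arm and the class can therefore not be told apart there. They include 17 of the 20 supernumerary subunits that were lower. In the matrix arm, which holds all 6 core subunits, the lower members were NDUFS3 and NDUFS7 (core) and NDUFA2 and NDUFA12 (supernumerary). NDUFV3, also supernumerary, was higher there, and the supernumerary count of lower genes came mostly from the membrane arm. The 7 mitochondrial complex I genes of the table were listed at 0 TPM in all 6 libraries, and no level is drawn from them. Nuclear pseudogenes of mitochondrial genes did carry TPM. MTND2P28, a nuclear copy of the ND2 gene, was at 785, 845 and 1144 TPM (siCTR) and 1376, 1466 and 2294 TPM (siCEP20) and MTND1P23, a copy of the ND1 gene, at 16.3, 18.8 and 22.8 TPM (siCTR) and 25.8, 29.9 and 59.1 TPM (siCEP20). Both were higher in the siCEP20 libraries, with log2 fold changes of 0.87 and 0.87 (limma, Benjamini-Hochberg adjusted p = 0.00992 and 0.0339). Reads of the mitochondrial genes and of these copies cannot be told apart in the table, and its 404 such pseudogene rows took 0.153% to 2.49% of TPM in the siCTR and 0.18% to 5.30% in the siCEP20 libraries.

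The assembly factors had a smaller median change than the subunits, which is given as a description without a test. Of the 36 subunits, 22 were lower (61.1%, against 13.2% of all genes tested) and 2 higher (against 30.2%). Their median log2 fold change was -0.37 (-0.51 relative to all genes). Of the 7 assembly factors, 1 was lower by limma (14.3%, near the 13.2% of all genes tested) and 0 were higher (against 30.2%). At an unadjusted limma p under 0.05, 2 were lower and 0 higher. The median of the factors was -0.0092 (-0.14 relative). The mean log2 level of the subunits minus that of the assembly factors was 1.86, 1.92 and 1.85 with siCTR and 1.62, 1.57 and 1.62 with siCEP20. The groups did not overlap in this difference, which went from 1.87 ± 0.0364 to 1.61 ± 0.0313 (SD, n = 3). Summed over the class, the subunits were at 5370.2, 5249 and 5391 TPM with siCTR and 3934, 4175 and 4075 TPM with siCEP20, with 76.1% of the control level left. The assembly factors summed to 282, 285 and 307 TPM with siCTR and 260.1, 274 and 273 TPM with siCEP20, with 92.4% left. The median of the assembly factors was -0.16 after median-of-ratios scaling and -0.15 after the length and GC correction, where the difference between the class medians was -0.17 in place of -0.36. In both settings 2 of the 7 factors were lower, NDUFAF3 and NDUFAF1, where 21.8% and 21.6% of all genes were.

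NDUFAF3, which acts with NDUFAF4 on the Q module, was the lower one. NDUFAF3 (ENSG00000178057; chr3:49020459-49023495, plus strand) was at 85.2, 86.1 and 93.8 TPM with siCTR and 73.1, 71.4 and 64.9 TPM with siCEP20. All siCEP20 values were below all controls, and the log2 fold change was -0.34 (standard error 0.07, limma with Benjamini-Hochberg adjusted p = 0.00582). NDUFAF4 itself was at 19.5, 12.01 and 18.2 TPM (siCTR) and 10.9, 16.4 and 13.6 TPM (siCEP20), with overlapping groups and a log2 fold change of -0.25 (95% interval -0.70 to 0.19). NDUFAF1, part of the membrane-arm intermediate assembly complex, was at 15.2, 13.8 and 11.6 TPM (siCTR) and 10.01, 11.97 and 9.5 TPM (siCEP20) and did not pass (-0.34, limma with Benjamini-Hochberg adjusted p = 0.0582). It passed under median-of-ratios scaling (adjusted p = 0.0215), quantile normalization (0.0193), the length and GC correction (0.0479) and a filter at a mean of 5 TPM (0.0473). It also passed when siCTR replicate 3 (0.0271) or siCEP20 replicate 2 (0.0402) was left out. NDUFAF2, a paralogue of NDUFA12, was the most abundant of the factors, at 101, 111 and 116 TPM (siCTR) and 103, 105 and 119 TPM (siCEP20), and its groups overlapped (-0.0082). NDUFAF5, which hydroxylates NDUFS7, NDUFAF6, an early factor, and NDUFAF7, a methyltransferase, had log2 fold changes of 0.092, 0.13 and -0.0092 and overlapping groups. The highest of these, NDUFAF6, was at 15.3, 18.1 and 19.1 TPM (siCTR) and 18.01, 20.7 and 18.7 TPM (siCEP20) (95% interval -0.11 to 0.36). The positive signs of NDUFAF5 and NDUFAF6 turned negative under median-of-ratios scaling.

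Assembly factors outside the 7 members were read beside them. Of 13 further factors on a list of known complex I assembly proteins, 5 were lower and 1 was higher, where 13.2% and 30.2% of all genes were. Their median log2 fold change was -0.24 (-0.37 relative to all genes). With median-of-ratios scaling, 9 were lower and 0 higher, where 21.8% and 19.7% of all genes were. TIMMDC1, a membrane-arm assembly factor, was at 98.8, 97.4 and 83.97 TPM (siCTR) and 52.1, 50.8 and 48.6 TPM (siCEP20). Its log2 fold change was -0.87 (adjusted p = 0.00012). COA1, another assembly factor, went from 107 ± 1.71 to 72.2 ± 0.325 TPM (SD, n = 3), with -0.56 (adjusted p = 0.000149). NDUFAF8, the partner of NDUFAF5 and not on the member list, was at 158, 143 and 159 TPM (siCTR) and 82.3, 95.3 and 69.3 TPM (siCEP20), with -0.90 (adjusted p = 0.000499). In all 3 genes every siCEP20 value was below every control (limma with Benjamini-Hochberg adjustment throughout).

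Of 41 nuclear genes of complexes II to V, 23 were lower and 3 higher, where 13.2% and 30.2% of all genes were. Their median log2 fold change was -0.32 (-0.45 relative to all genes), beside -0.33 for the complex I members. No difference between these lists was tested. ATP5MC1, a gene for the c subunit of the ATP synthase rotor, went from 429 ± 7.05 to 235 ± 6.43 TPM (SD, n = 3), a log2 fold change of -0.87. ATP5MK, a small ATP synthase subunit, went from 254 ± 23.3 to 122 ± 1.85 TPM (SD, n = 3) (-1.05), and UQCRQ, a complex III subunit, from 163 ± 8.79 to 94.3 ± 2.86 TPM (SD, n = 3) (-0.78). The adjusted p of these 3 genes ran from 3.07e-05 to 7.33e-05, by limma with Benjamini-Hochberg adjustment over all genes tested. NDUFA4, named after its values were seen because it was once counted in complex I and now belongs to complex IV, was at 110.3, 98.7 and 95.2 TPM (siCTR) and 54.6, 59.4 and 59.8 TPM (siCEP20), with -0.80 (adjusted p = 0.000154).

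Transcript length went with the change. Across the 43 members, Spearman's rho between the length of the canonical transcript and the log2 fold change was 0.517, as a description over genes that share the same 6 libraries, and it was 0.464 over the 36 subunits, 0.254 over 14737 tested genes with a length and 0.232 over the members after the length and GC correction. With a limit of 1000 bases, chosen after the values were seen, 28 members were shorter, of which 20 were lower and 0 higher by limma (21 and 0 at an unadjusted p under 0.05, median -0.39), and 15 were longer, of which 3 were lower and 2 higher (median -0.10). The longer members counted 7 lower and 1 higher both under median-of-ratios scaling (median -0.25) and after the length and GC correction (median -0.17). Among all tested genes under 1000 bases, 26.0% were lower and 12.9% higher (median -0.07), and among the longer ones 10.96% were lower and 33.2% higher (median 0.16). Within the short members, 14 of 16 membrane-arm genes (median -0.49) and 4 of 9 matrix-arm genes (median -0.19) were lower. Within the long ones, the counts were 3 of 4 (median -0.48) and 0 of 6 (0 also at an unadjusted limma p, median -0.05). For the 6 long matrix-arm genes the count was 3 under median-of-ratios scaling (NDUFA6, NDUFA9 and NDUFV1) and 3 after the length and GC correction (NDUFA9, NDUFS1 and NDUFV1). Of the 7 assembly factors, 5 were long. The part of length in the difference between the classes was not tested beyond the correction above.

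**Figure D4:**
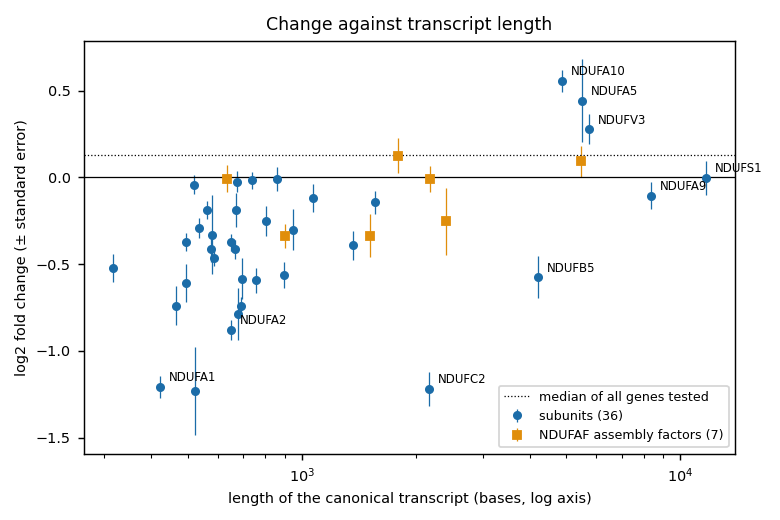
Log2 fold change with its standard error against the length of the canonical transcript (bases, log axis) for 36 subunits (circles) and 7 NDUFAF assembly factors (squares), with the median of all genes tested dotted. The longer genes NDUFA10, NDUFV3 and NDUFA5 lie highest, while NDUFC2 and NDUFB5 are long and low.

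Annotated readthrough genes overlap 6 members on the same strand, so the division of reads between the 2 rows of each pair is uncertain. NDUFC2 changed most when they were added, an alternative chosen after seeing the data. Its readthrough gene with KCTD14 was at 121, 82.3 and 97.4 TPM with siCTR and 123, 127 and 102 TPM with siCEP20. The sum of both rows went from 152 ± 15.7 to 139 ± 14.4 TPM (SD, n = 3), a log2 fold change of -0.13 (standard error 0.0989, limma with Benjamini-Hochberg adjusted p = 0.338), which did not pass. For NDUFA13 the sum went from 217 ± 9.05 to 124 ± 21.6 TPM (SD, n = 3), with -0.82 (standard error 0.111, limma with Benjamini-Hochberg adjusted p = 0.000818). For NDUFB8 it went from 283 ± 15.5 to 165 ± 22.9 TPM (SD, n = 3), with -0.78 (standard error 0.1, limma with Benjamini-Hochberg adjusted p = 0.000624). NDUFA11 also remained lower in the sum (-0.26, adjusted p = 0.00344). NDUFA9, which had not passed alone, was lower in the sum, from 20.8 ± 2.17 to 15.2 ± 1.76 TPM (SD, n = 3), with -0.44 (standard error 0.11, limma with Benjamini-Hochberg adjusted p = 0.0134). NDUFA7 did not pass either way, with -0.025 in the sum. With all 6 sums in place, 23 members were still lower, since NDUFC2 lost and NDUFA9 gained a call.

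**Figure D5:**
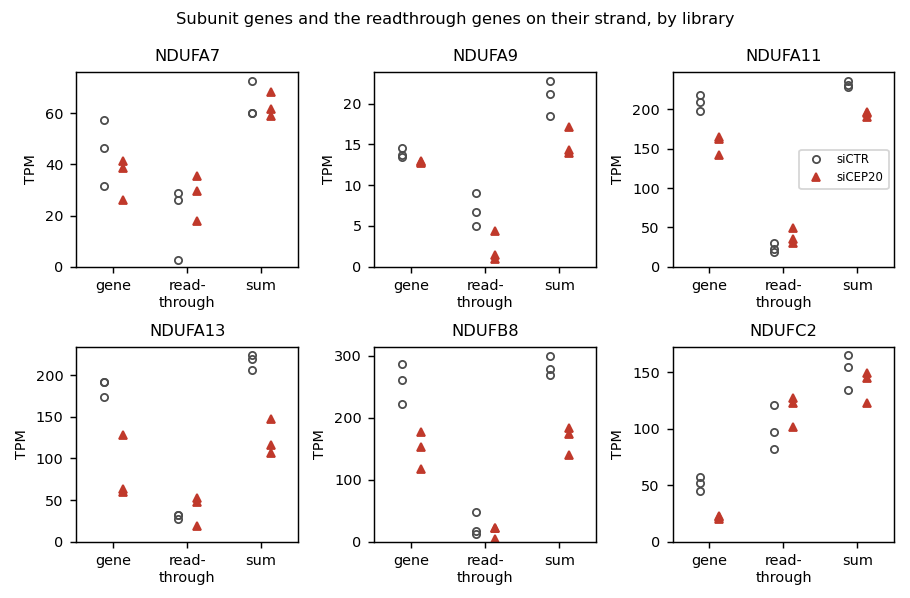
TPM of 6 subunit genes, of the readthrough gene on the same strand and of their sum, in the 3 siCTR (circles) and 3 siCEP20 (triangles) libraries. The groups separate for NDUFC2 alone but overlap in its sum, and they separate in the sums of NDUFA9, NDUFA11, NDUFA13 and NDUFB8.

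Of the 43 members, 20 overlapped an expressed gene, 10 of them on the same strand and 10 only on the opposite strand, and whether the authors' counting used strand is not given in the sources used here. Of the 23 members with no such overlap, 10 were lower and 2 were higher, among them NDUFA1 and both NDUFA10 and NDUFV3. Leaving out each library in turn gave 21 to 24 lower and 1 or 2 higher members. Of the 25 members that passed, 21 stayed past the threshold in the same direction in each of 16 alternative settings, and NDUFA8, NDUFA12, NDUFV3 and NDUFC2 were the exceptions.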

How the data were processed

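Per the labels' processing notes, the authors trimmed reads with fastp 0.20.1, aligned them to hg38 with HISAT2 2.1.0 and quantified genes with StringTie 2.0. The deposited table holds the TPM of each Ensembl gene in 6 libraries, with 0 columns of other samples. TPM carries no read counts, which leaves sequencing depth unknown. No counting interval was computed, and precision rests on 3 libraries per group. The annotation release behind the table is not given in the sources used here. Genes were named and placed with GENCODE release 44 (hg38), which gave a symbol to 99.6% of rows, and transcript lengths came from the canonical transcript. Readthrough genes are those tagged so in that annotation.

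Genes whose mean reached 1 TPM were tested on the log2(TPM + 1) scale, siCEP20 against siCTR, by limma (version 3.58.1, under R version 4.3.3; moderated with a trend, no rescaling, no replicate term), with Benjamini-Hochberg adjustment over all genes tested. This replaces the study's count-based test, since counts were not analysed here. Its thresholds (adjusted p under 0.05, fold change over 1.5 or under 0.67) were kept. The fit was tested on simulated data. Class, arm and module medians, sums and differences were described without a test. The modules and the lists (other complex I assembly factors, complexes II to V, iron-sulfur cluster assembly, regulators of respiratory genes, and epithelial, fibroblast, immune and endothelial markers, of which 1 is not reported here) were written by hand, and the members and lists were chosen with earlier results of these data known. By rule, members past both thresholds and the extreme members of each class were given with full values, other members by value or range, and of each pathway list the 3 genes with the smallest adjusted p.

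The fit was repeated with a pseudocount of 0.1, without the TPM filter, with a mean of 5 TPM required, with median-of-ratios scaling, quantile normalization, a loess correction (span 0.5) for length and GC content, no trend, the replicate number as a block and each library left out. Summing members with readthrough genes, and removing nuclear pseudogenes of mitochondrial genes before rescaling to a fixed total, were chosen after seeing the data. Motifs were counted on both strands of RefSeq promoters. Tables were handled in Python 3.11.15 (pandas 2.3.3, numpy 2.4.6, scipy 1.17.1) and plots drawn with matplotlib 3.10.9.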

Additional observations from a re-analysis of the deposited data

How the results depend on the processing

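The count of lower members stayed within 1.5 times of 23 in all 16 alternatives. The count of higher members was 1 in place of 2 without a filter on low TPM and under median-of-ratios scaling, quantile normalization and the length and GC correction. The subunit median was -0.53 under median-of-ratios scaling. The assembly factor median was -0.16 under median-of-ratios scaling, -0.14 under quantile normalization, -0.15 after the length and GC correction and 0.0086 without the mitochondrial pseudogenes. The difference of the medians was -0.28, -0.17 and -0.33 under quantile normalization, the length and GC correction and the readthrough sums. With each library left out in turn, 21 to 24 members were lower and 1 to 2 higher, 8 to 12 were lower and 0 to 1 higher with the fold threshold, where NDUFA5 passed without siCTR replicate 2 and NDUFA10 without siCEP20 replicate 1. The subunit median then lay between -0.39 and -0.36, that of the assembly factors between -0.072 and 0.034 (above 0 without siCTR replicate 3 or siCEP20 replicate 1) and their difference between -0.40 and -0.28. The log2 fold change of CEP20 lay between -0.97 and -0.84 (adjusted p from 0.000665 to 0.00141).

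Signs turned only in members that did not pass the test. NDUFAF5 and NDUFAF6 were at -0.058 and -0.022 under median-of-ratios scaling and at -0.040 and -0.018 under quantile normalization. After the length and GC correction, NDUFB10 was at 0.055, NDUFS6 at 0.059, NDUFS8 at 0.051, NDUFV2 at 0.022, NDUFAF2 at 0.049 and NDUFAF5 at -0.15. Without the mitochondrial pseudogenes, NDUFS1 was at 0.016, NDUFS8 at 0.0011, NDUFV2 at 0.0081, NDUFAF2 at 0.010 and NDUFAF7 at 0.0086. With each library left out, NDUFAF2 ranged from -0.072 to 0.034, NDUFAF7 from -0.063 to 0.037, NDUFB10 from -0.068 to 0.011, NDUFS1 from -0.066 to 0.078 and NDUFV2 from -0.070 to 0.026. The cause was not tested.

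Deviations from the group means had correlations of 0.157, -0.061 and -0.062 between libraries with the same replicate number. Between libraries with different numbers they ran from -0.121 to 0.17. These values over all tested genes cannot exclude a pairing. Nothing in the labels says that a number marks a shared culture, so the main fit did not pair the samples. With the replicate number as a block, limma called 26 members lower and 3 higher, with 10 lower and 0 higher past the fold threshold. No member lost its call, while NDUFA3, NDUFA5, NDUFA7 and NDUFAF1 gained one (limma with Benjamini-Hochberg adjusted p = 0.0304, 0.00756, 0.0157 and 0.0470). The share of all genes called with the block is not given here, so these counts have no background beside them. The deposited TPM gives no depth, which limits what can be said of the least abundant members.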

Other observations

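Genes that build iron-sulfur clusters, the electron carriers of complex I, were called in both directions. Of 15 on the list, 4 were lower and 2 higher, where 13.2% and 30.2% of all genes were. Their median log2 fold change was -0.12 (-0.25 relative to all genes). ISCA1, a late-acting carrier, was at 40.8, 42.8 and 42.3 TPM (siCTR) and 56.3, 56.1 and 57.8 TPM (siCEP20), with a log2 fold change of 0.43 (adjusted p = 0.000849). ISCU, the scaffold on which clusters are built, was at 164, 184 and 162 TPM (siCTR) and 125, 138 and 128 TPM (siCEP20), with -0.38 (adjusted p = 0.00312). HSCB, the cochaperone that acts on ISCU, was at 35.1, 36.7 and 38.9 TPM (siCTR) and 31.2, 27.8 and 24.9 TPM (siCEP20), with -0.39 (adjusted p = 0.0102) (limma with Benjamini-Hochberg adjustment for all 3). In none of the 3 genes did the groups overlap. With median-of-ratios scaling, 7 of the list were lower and 1 was higher, where 21.8% and 19.7% of all genes were.

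Of 12 regulators of respiratory genes, 11 were tested, of which 1 was lower and 1 higher, where 13.2% and 30.2% of all genes were. Their median log2 fold change was -0.012 (-0.14 relative to all genes). ESRRA, the estrogen-related receptor alpha, was at 60.8, 58.8 and 55.4 TPM (siCTR) and 41.7, 39.8 and 32.4 TPM (siCEP20), with -0.61 (adjusted p = 0.00171). PPRC1, a coactivator related to PGC-1, was at 32.99, 38.3 and 44.9 TPM (siCTR) and 55.1, 56.9 and 63.2 TPM (siCEP20), with 0.59 (adjusted p = 0.00381). GABPA, the ETS-family subunit of the GA-binding protein, was at 5.94, 6.45 and 7.43 TPM (siCTR) and 8.6, 8.49 and 7.72 TPM (siCEP20) and did not pass, with 0.29 (adjusted p = 0.0631) (limma with Benjamini-Hochberg adjustment). With median-of-ratios scaling, 3 of the list were lower and 1 was higher, where 21.8% and 19.7% of all genes were.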
